A study of Homo sapiens with 18 samples.

Results

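The genes for the subunits of mitochondrial oxidative phosphorylation were followed in U251 cells, an established human glioblastoma line, given the solvent DMSO or enzastaurin, an inhibitor of protein kinase C beta. The members were the genes whose symbol begins with NDUFA, NDUFB, NDUFC, NDUFS, NDUFV, UQCR, COX4 to COX8 or ATP5, or runs from SDHA to SDHD, with the NDUFAF assembly factors left out. A gene needed a probe set (a group of array probes for 1 transcript) that named no other gene, and its brightest probe set stood for it. This gave 79 genes of 19775, of which 33 belonged to complex I, 3 to complex II, 6 to complex III, 19 to complex IV and 18 to complex V. A mean intensity of at least 109.0, the median level of all probe sets, was reached by 74 members and by 12392 genes in all. The other members were COX7A1, COX7B2, COX8C, COXFA4L2 and ATP5MF, and they entered no count. COXFA4, the current symbol of NDUFA4, was counted with complex IV, and COXFA4L2 is NDUFA4L2.

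There were 6 groups of 3 Affymetrix HG-U133 Plus 2.0 arrays, DMSO for 4, 10 or 18 h and enzastaurin for 4, 10 or 18 h. All cells were of 1 line, U251, grown in RPMI medium with serum, and the dose of enzastaurin is not given in the sources used here. The labels do not say whether the 3 arrays of a group came from separate cultures, so each p-value reflects only how far these arrays spread, which may be technical, and 3 arrays a group limit the precision. In RNA from whole cultures, fewer cells of a kind and less RNA per cell cannot be told apart.

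Array medians lay between 99.2 and 125.9, and arrays of 1 group correlated at 0.976 to 0.986 over the log2 values. Of 9 astroglial and glioma markers 7 passed the intensity filter, among them VIM, CD44, NES and SOX2, while GFAP and S100B stayed at mean intensities of 27.8 and 12. Of 16 markers of leukocytes, endothelium, epithelium, neurons and muscle 4 passed. The neuronal SYT1, a synaptic vesicle protein, read 421 ± 33.2 with DMSO and 777 ± 70.0 with enzastaurin at 18 h. NES, an intermediate filament protein, read 4406 ± 295 with DMSO and 2756 ± 191 with enzastaurin (mean ± SD, n = 3). SOX2, a stem cell transcription factor, was lower at 4 h (log2 change -0.54, adjusted p = 0.00046) and higher at 18 h (log2 change 0.45, adjusted p = 0.0003), and SNAP25, the other neuronal marker that passed, changed by -0.15 (adjusted p = 0.7) at 18 h. Their part in the results below was not tested.

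Oxidative phosphorylation couples electron flow along the inner mitochondrial membrane to ATP synthesis. Complex I takes electrons from NADH and complex II from succinate, both pass them through ubiquinone to complex III, and cytochrome c carries them on to complex IV, which reduces oxygen. Complexes I, III and IV pump protons, and complex V, the ATP synthase, uses the gradient to make ATP. Most subunits are encoded in the nucleus and a few in mitochondrial DNA, and both sets must be made in matching amounts. In many tissues the nuclear subunit genes are expressed together. Glioma cells are known for high glycolysis.

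Few subunit genes changed under enzastaurin, and every call at a single time was downward. A gene was called when the limma p-value, adjusted by Benjamini-Hochberg over all 12392 genes, was below 0.05. At 4 h none of the 74 members was called, against 0.541% of all genes called higher and 1.23% called lower, and at an unadjusted p under 0.05 there were 2 higher and 0 lower. At 10 h the called member was COX5B, which was lower (1.35% of members, against 4.63% of all genes called lower and 3.78% called higher). At 18 h 7 members were lower and none higher, which was 9.46% of members against 7.82% of all genes called lower, and 8.03% of all genes were called higher. The share lower was thus near that of all genes and is no result about the members. The 7 genes were NDUFA2, NDUFB1, NDUFB5 and NDUFS4 of complex I, UQCR10 of complex III, COX5B of complex IV and ATP5MC1 of complex V. The count at 18 h was sensitive to single arrays: it was 4, 3 and 13 without DMSO 18 h replicates 1, 2 and 3, 4 and 2 without enzastaurin 18 h replicates 1 and 3, and 11 without enzastaurin 10 h replicate 3. The count of 1 at 10 h was 0 without any 1 of 11 arrays (all 6 of the 10 h groups, all 3 DMSO 4 h arrays and enzastaurin 4 h replicates 1 and 3), and it was 2 and 3 without DMSO 18 h replicates 1 and 3. Leaving out an array changes the calls of all genes, whose shares in these fits are not given here. The counts thus show how stable the calls were and no more about the members.

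The members' median changes were small, and close in size to the spread between replicate arrays. The median log2 change, enzastaurin minus DMSO, was 0.04 at 4 h, -0.05 at 10 h and -0.07 at 18 h over the 74 members, against 0.00, -0.02 and 0.00 over all genes. Most members are bright, and over all genes among the brightest 25% of probe sets the medians were 0.02, 0.00 and 0.00. The signs and overlaps below are set against all genes tested, which are dimmer. At 4 h 57 members lay above 0 and 17 below. By 10 h this had turned, with 16 above and 58 below, and at 18 h 19 lay above and 55 below. Of all genes, 50.2% lay above 0 at 4 h, 46.9% at 10 h and 50.3% at 18 h. All 3 enzastaurin arrays lay below all 3 DMSO arrays for 17 members at 18 h (23.0%, against 14.3% of all genes), and above them for 1 member (1.35%, against 15.4%). At 10 h these were 8 members below (10.8%, against 15.0%) and 0 above (against 11.8%), and at 4 h 7 members above (9.46%, against 9.17%) and 2 below (2.7%, against 9.11%). The sign of the members' median held in all 31 other settings and left-out arrays at each time (0.019 to 0.152 at 4 h, -0.113 to -0.015 at 10 h and -0.115 to -0.017 at 18 h). Subtracting each array's median moved the median of all genes to 0.12 and that of members to 0.15 at 4 h, and it left 1 member, COX5B, called at 18 h.

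The complexes had medians of like size, and differences between complexes were not tested. Complex medians at 4 h were 0.06 for complex I, 0.00 for II, 0.02 for III, 0.02 for IV and 0.05 for V. At 10 h they were -0.06, -0.07, -0.03, -0.03 and -0.01, and at 18 h -0.09, -0.07, -0.09, -0.06 and -0.05, in the same order. Each complex except II had at least 1 member called lower at 18 h, with 4 of 33 in complex I, 1 of 6 in III, 1 of 15 in IV and 1 of 17 in V. These shares were 12.1%, 16.7%, 6.67% and 5.88%, against 7.82% of all genes called lower, and outside complex I each rested on 1 gene. The SD between replicate arrays of the members' median level was 0.058 on the log2 scale, close to these medians, and the 2 groups overlapped at each time. The members' median level, as a log2 deviation from each gene's mean over 18 arrays, was 0.109, 0.065 and -0.022 in the DMSO 18 h arrays and -0.073, 0.002 and -0.025 in the enzastaurin 18 h arrays. DMSO 18 h replicate 3 thus lay among the enzastaurin arrays. At 10 h enzastaurin replicate 3, at 0.075, stood apart from replicates 1 and 2, at -0.09 and -0.066. Without that array the members' median change at 10 h was -0.11.

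**Figure D1:**
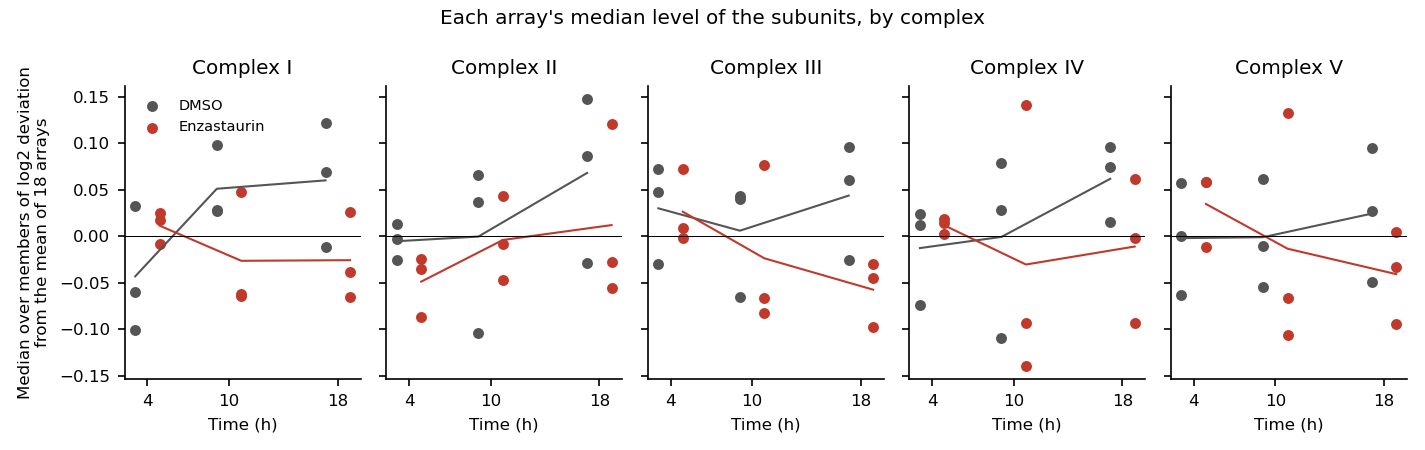
Median over the tested members of the log2 deviation from each gene's mean over 18 arrays, for each array, by complex and time in h. Points are arrays, lines join group means of 3 arrays, DMSO in grey and enzastaurin in red. In complexes I, IV and V the enzastaurin mean lies above the DMSO mean at 4 h and below it at 18 h. In complexes II and III it lies below at each time. Single arrays lie apart from their group, such as enzastaurin 10 h replicate 3 in all complexes but II.

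In complex I, 26 of 33 members lay above 0 at 4 h, 4 at 10 h and 8 at 18 h (against 50.2%, 46.9% and 50.3% of all genes). The 4 calls at 18 h were all accessory subunits, as are most of the 33 members, and 7.82% of all genes were called lower. NDUFB5, an accessory subunit of the membrane arm, had intensities of 8632, 8265 and 8309 in the DMSO 18 h arrays and 6965, 7101 and 7057 in the enzastaurin 18 h arrays. Every enzastaurin array lay below every DMSO array, and the group means were 8402 ± 200 and 7041 ± 69.3 (SD, n = 3). The log2 change was -0.25 (95% interval -0.37 to -0.14, adjusted p = 0.0025). At 4 h the 2 groups overlapped (7549, 7085 and 7882 with DMSO, 8209.9, 7676 and 7921 with enzastaurin), and at 10 h the change was -0.02 (95% interval -0.13 to 0.10). The call at 18 h held without any single array and was lost with array medians subtracted (adjusted p = 0.051).

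NDUFB1, another membrane arm subunit, measured 6075, 6668 and 5737 with DMSO and 5152, 5414 and 5046 with enzastaurin at 18 h. The groups did not overlap, and the change was -0.24 (95% interval -0.38 to -0.11, adjusted p = 0.014). At 10 h the arrays read 6293, 6411 and 5939.5 and 5289, 5521 and 5348, also without overlap, with a change of -0.21 (95% interval -0.34 to -0.07, adjusted p = 0.055). The 18 h call was lost without DMSO 18 h replicate 2 or enzastaurin 18 h replicate 3 (adjusted p up to 0.094), and its dimmer second probe set, at a mean of 258.0, gave 0.23 instead.

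NDUFA2, an accessory subunit of the peripheral arm, measured 5952, 5782 and 5555 with DMSO and 5216, 5196 and 4962 with enzastaurin at 18 h, without overlap. Its change was -0.17 (95% interval -0.28 to -0.06, adjusted p = 0.035), and without any 1 of 5 arrays of the 18 h groups, DMSO replicates 1 and 2 and enzastaurin replicates 1, 2 and 3, the adjusted p rose to as much as 0.14. NDUFS4, an accessory subunit whose loss causes Leigh syndrome, measured 4288, 3901 and 3712 with DMSO and 3426, 3649 and 3205 with enzastaurin. The lowest DMSO array was above the highest enzastaurin array by a small margin, and the change was -0.21 (95% interval -0.35 to -0.07, adjusted p = 0.044). That call was the least stable, with 13 arrays whose omission raised the adjusted p past the threshold, to at most 0.21. It held without DMSO 10 h replicate 1, DMSO 18 h replicate 3, enzastaurin 10 h replicate 2 or 3 or enzastaurin 18 h replicate 2.

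The nuclear-encoded core subunits of complex I include those that hold the flavin and the iron-sulfur clusters. None of the 5 among the members was called in the enzastaurin comparisons (at 18 h 7.82% of all genes were called lower and 8.03% higher). Core and accessory subunits were not compared by a test. The complex I subunits of mitochondrial DNA are described below. At 18 h NDUFS7, which carries the last cluster before ubiquinone, changed by 0.15 (95% interval -0.05 to 0.36), and its average over the 3 times, 0.14 (adjusted p = 0.092), was the highest of the complex. NDUFS3 changed by 0.16 (95% interval 0.01 to 0.30, adjusted p = 0.13), NDUFV1, the NADH-binding subunit, by 0.05, NDUFV2 by -0.10 and NDUFS1 by -0.14. Close to the threshold but not called at 18 h were NDUFA11 at -0.21 (adjusted p = 0.052) and NDUFB6 at -0.23 (adjusted p = 0.061), both accessory subunits, and NDUFB11 had the lowest value of the complex, at -0.26 (adjusted p = 0.13). At 4 h NDUFA7, an accessory subunit, and NDUFS7 lay highest, at 0.25 (adjusted p = 0.3) and 0.21 (adjusted p = 0.38). NDUFAB1, the mitochondrial acyl carrier protein, lay at 0.00, -0.01 and 0.01 at 4, 10 and 18 h.

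Complex II had 3 members measured, and none was called at any time. SDHA, the flavoprotein that oxidizes succinate, read 1386, 1461 and 1717 with DMSO and 1262, 1329.8 and 1324 with enzastaurin at 4 h, where all enzastaurin arrays were lower. At 18 h it read 1513, 1536 and 1206 and 1699.9, 1384 and 1573, with overlap. Its changes were -0.21 (95% interval -0.45 to 0.02) at 4 h and 0.13 (95% interval -0.10 to 0.37) at 18 h. The membrane anchors SDHC and SDHD changed by -0.07 and -0.16 (adjusted p = 0.068) at 18 h.

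In complex III, UQCR10, a small subunit of the cytochrome bc1 complex, measured 21060.4, 20222 and 18794 with DMSO and 16247, 18182 and 16606 with enzastaurin at 18 h. The groups did not overlap, and the change was -0.24 (95% interval -0.39 to -0.08, adjusted p = 0.032). It was not called without DMSO 18 h replicate 1 or 2 or enzastaurin 18 h replicate 1 or 3 (adjusted p up to 0.14). A second probe set of UQCR10, at a mean of 461.0, gave 0.53 at 18 h and fell by 1.36 on the log2 scale from 4 to 18 h in DMSO, so the probe sets of this gene disagreed. UQCRC1, a core subunit, had the highest value of the complex, with 8124, 8257 and 9195 in DMSO and 8757, 8989.7 and 10359 in enzastaurin at 18 h, and overlapping arrays. Its average change of 0.11 (adjusted p = 0.077) was not called. UQCRC2, the other core subunit, changed by 0.01 at 18 h, UQCRB by -0.09, UQCRQ by -0.10 and UQCR11 by -0.13.

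In complex IV, COX5B, a nuclear-encoded zinc-binding subunit, had the smallest adjusted p of the members for enzastaurin against DMSO, at 10 h, at 18 h and for the average. Its arrays at 10 h read 7757, 7891 and 8099.7 with DMSO and 6719.6, 6939 and 7116 with enzastaurin. At 18 h they read 8707, 8442 and 7782 and 6937, 7037 and 6528. The groups did not overlap at either time, whereas at 4 h (7184, 6948 and 7192 and 7688, 7036 and 7615) they did. The changes were -0.19 (95% interval -0.32 to -0.07, adjusted p = 0.047) at 10 h and -0.28 (95% interval -0.40 to -0.16, adjusted p = 0.002) at 18 h, and the average over the 3 times was -0.14 (adjusted p = 0.0073). The 18 h call held without any single array (adjusted p up to 0.017), while the 10 h call was lost without any 1 of 12 arrays (up to 0.16), namely all 6 of the 10 h groups, the 3 DMSO 4 h arrays, DMSO 18 h replicate 2 and enzastaurin 4 h replicates 1 and 3. Its other bright probe sets changed by -0.20 and -0.15 at 18 h, and the mean over all 4, which includes 1 at a mean intensity of 68.7, gave -0.11 and no call (adjusted p = 0.71).

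Subunit 4 has isoforms that differ by tissue. COX4I1, the ubiquitous form, read 15019, 13895 and 14163 with DMSO and 14053, 13926 and 14775 with enzastaurin at 18 h. Its change was -0.01 at each time, with a 95% interval of -0.18 to 0.16. COX4I2, the form known from lung and hypoxic cells, was dim, with 229.9, 211 and 209 in DMSO and 148, 203 and 145 in enzastaurin at 4 h, where all enzastaurin arrays were lower. At 18 h it read 141, 172 and 259 with DMSO and 257, 311 and 319 with enzastaurin, and the groups overlapped, since DMSO replicate 3 lay above the lowest enzastaurin array. Its changes of -0.37 (95% interval -0.93 to 0.18) at 4 h and 0.63 (95% interval 0.07 to 1.18, adjusted p = 0.12) at 18 h were not called, nor was their difference, 1.0 (95% interval 0.22 to 1.78, adjusted p = 0.12). In enzastaurin it was higher at 18 h than at 4 h, by 0.79 (95% interval 0.24 to 1.34, adjusted p = 0.029), a call lost without enzastaurin 4 h replicate 1 or 3 or 18 h replicate 2 or 3 (adjusted p up to 0.09).

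None of the other named isoforms of complex IV was called. COX6A2, the heart and muscle form of subunit 6A, had group means between 146 and 194 and a change of 0.15 (95% interval -0.41 to 0.71) at 18 h. COX7A1, the muscle form of subunit 7A, and COXFA4L2, a hypoxia-induced relative of COXFA4, had mean intensities of 9.47 and 50.5, below the filter. In the fit with no filter COX7A1 changed by 0.00 (95% interval -0.47 to 0.46) and COXFA4L2 by 0.75 (95% interval -0.45 to 1.95, adjusted p = 0.55) at 18 h. COXFA4, an abundant subunit, read 15612, 16886 and 20001 in the enzastaurin 18 h arrays against 18349.6, 18745 and 18193 with DMSO, and the groups overlapped, with enzastaurin replicate 3 the highest of the 6. Its change was -0.08 (95% interval -0.25 to 0.09). The ubiquitous forms COX6A1 and COX7A2, and the supercomplex factor COX7A2L, changed by 0.00, -0.19 (adjusted p = 0.095) and 0.01.

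In complex V, ATP5MC1, a gene for the ring subunit c that carries protons through the membrane, measured 2758, 2853 and 3503 with DMSO and 2346, 2390.4 and 2400.0 with enzastaurin at 18 h. All enzastaurin arrays were lower, and DMSO replicate 3 was the highest array. The change was -0.34 (95% interval -0.57 to -0.12, adjusted p = 0.035), and the call was lost without DMSO 18 h replicate 3 or any enzastaurin 18 h array (adjusted p up to 0.19). The other genes for the same mature protein, ATP5MC2 and ATP5MC3, changed by -0.01 (95% interval -0.19 to 0.16) and 0.02 (95% interval -0.16 to 0.20). ATP5F1A and ATP5F1B, the head subunits alpha and beta, changed by -0.19 (adjusted p = 0.094) and 0.01 (adjusted p = 0.97). ATP5F1D, the delta subunit of the central stalk, had the highest average of the complex, 0.12 (adjusted p = 0.27).

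ATP5IF1, the inhibitor of ATP synthase that blocks reverse ATP hydrolysis, read 3989.9, 4084 and 3951 with DMSO and 3469.9, 3292 and 3299 with enzastaurin at 10 h, without overlap. At 18 h it read 4825, 4134 and 3290.0 and 3369.8, 3569 and 3330.2, where DMSO replicate 3 was the lowest of the 6 arrays. The changes were -0.26 (95% interval -0.45 to -0.06, adjusted p = 0.099) at 10 h and -0.24 (95% interval -0.43 to -0.04, adjusted p = 0.093) at 18 h. The average over the times was called, at -0.16 (adjusted p = 0.043), and was lost without any 1 of 13 arrays (up to 0.085), all but DMSO 4 h replicate 2, DMSO 18 h replicate 3, enzastaurin 4 h replicate 3, enzastaurin 10 h replicate 1 and enzastaurin 18 h replicate 2. Its dimmer probe sets gave -0.55 and -0.33 at 10 h and -0.27 and -0.30 at 18 h.

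**Figure D2:**
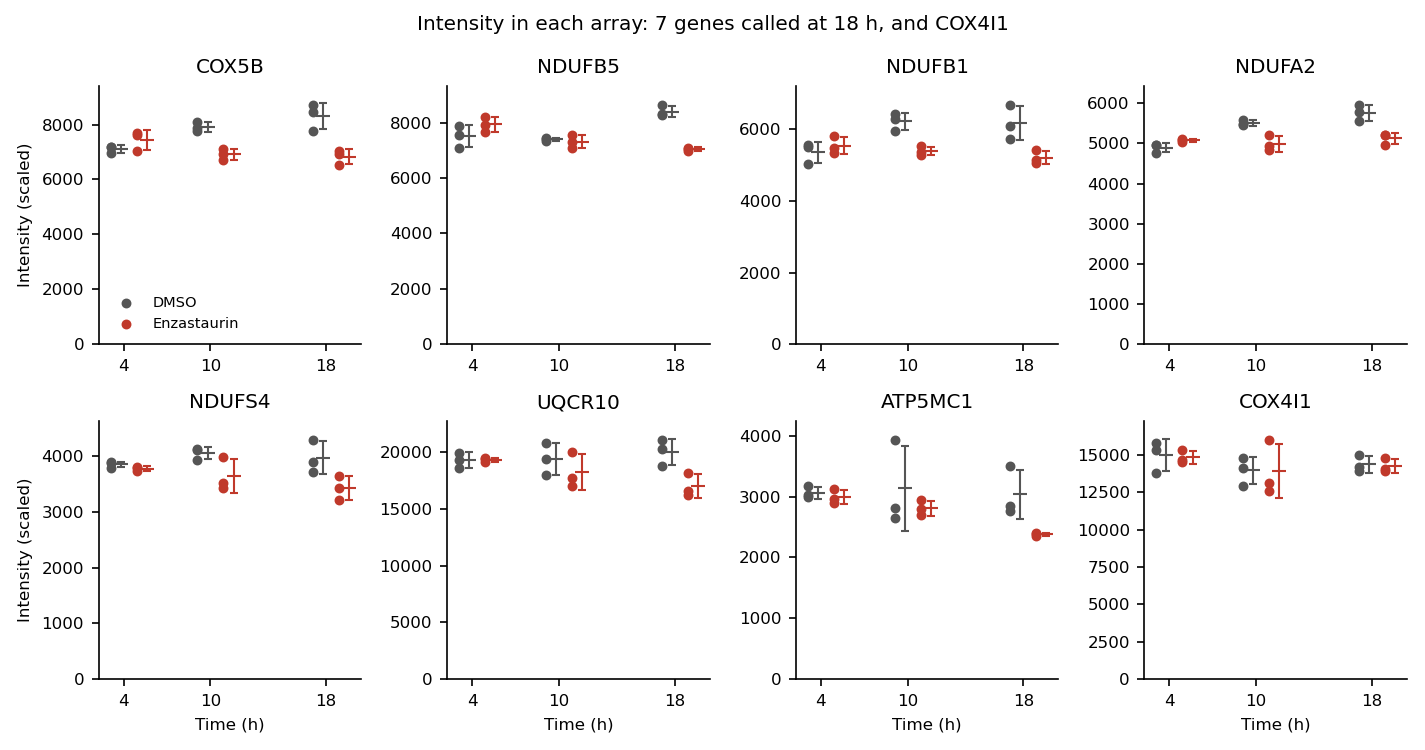
Scaled intensity in each array against time in h for the 7 genes called at 18 h and COX4I1, with DMSO in grey, enzastaurin in red and bars of mean ± SD (n = 3). In the 7 called genes every enzastaurin array at 18 h lies below every DMSO array, while the COX4I1 arrays overlap.

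Over the average of the 3 times, 5 members were called lower and none higher (6.76%, against 9.4% of all genes called lower and 9.05% called higher): COX5B, NDUFB1 at -0.13 (adjusted p = 0.017), NDUFS4 at -0.13 (adjusted p = 0.025), ATP5IF1 and NDUFC1, a small membrane arm subunit, at -0.11 (adjusted p = 0.043). The count was 3 without any 1 of 6 arrays (DMSO 4 h replicates 1 and 3, DMSO 10 h replicate 2, DMSO 18 h replicates 1 and 2, enzastaurin 10 h replicate 2), 2 without enzastaurin 18 h replicate 3, and 0 with array medians subtracted. NDUFS4 was lost without DMSO 18 h replicate 1, enzastaurin 10 h replicate 1 or 2 or enzastaurin 18 h replicate 3 (adjusted p up to 0.06), and NDUFC1 without any 1 of 12 arrays (up to 0.097), DMSO 18 h replicate 1 and enzastaurin 18 h replicate 3 among them. The median change over members was -0.03 against -0.01 over all genes, and 0.01 with array medians subtracted.

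The members were measured more precisely than most genes, with narrower intervals. At each time the 95% interval lay within ±0.5 on the log2 scale, a 1.41-fold change, for 70 of 74 members (94.6%), against 58.2% of all genes at 4 h, 53.4% at 10 h and 49.2% at 18 h. The median standard error was 0.079 for members and 0.134 for all genes, and 71 of the 74 were among the brightest 25% of probe sets. The widest intervals at 18 h belonged to COX4I2, COX6A2 and the testis form COX6B2, which had mean intensities of 208.0, 175.0 and 146.0. For COX6B2 the interval ran from -1.15 to 0.69.

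**Figure D3:**
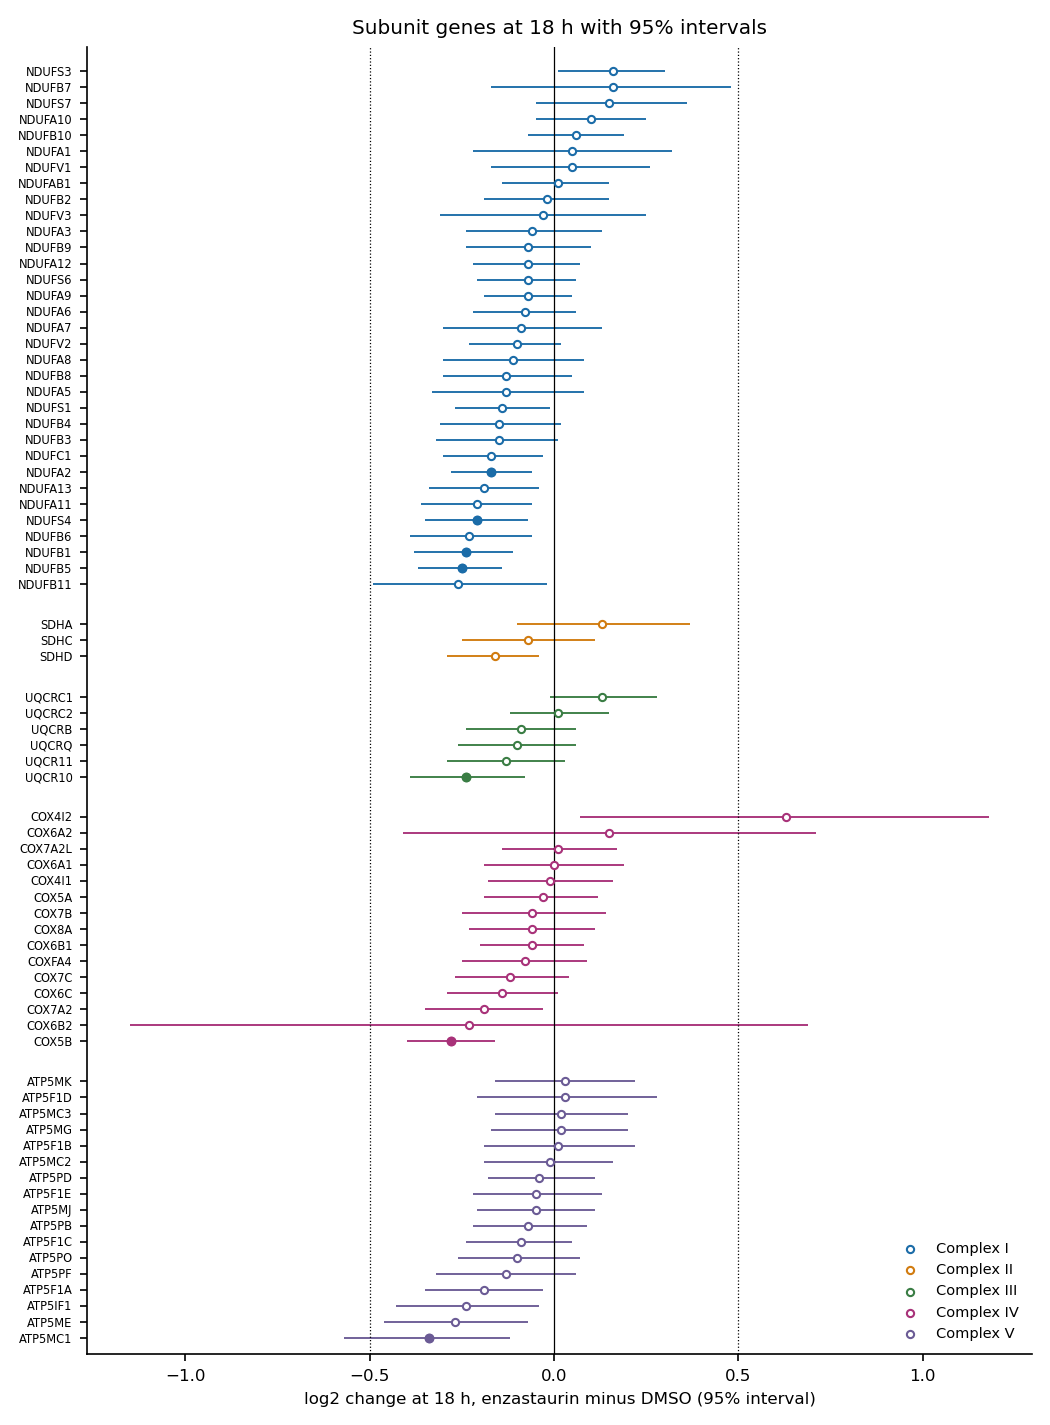
Log2 change at 18 h (enzastaurin minus DMSO) with 95% limma intervals for the 74 tested members, grouped by complex and ordered by change, filled where called. Dotted lines mark ±0.5, and 70 intervals lie inside them.

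Promoters are shown for 4 members, COX5B, NDUFA2 and NDUFB1, which were called lower at 18 h, and COX4I1, which was not, to show the letters near the starts of genes with and without a call. The 250 bases before each start, from RefSeq on GRCh38.p14, are in lower case with the searched motif letters in capitals.
COX5B: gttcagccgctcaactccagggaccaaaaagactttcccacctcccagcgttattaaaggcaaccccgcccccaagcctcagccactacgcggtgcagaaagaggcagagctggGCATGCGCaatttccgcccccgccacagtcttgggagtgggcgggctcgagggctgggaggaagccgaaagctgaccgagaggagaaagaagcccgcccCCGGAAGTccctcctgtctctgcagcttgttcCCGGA
NDUFA2: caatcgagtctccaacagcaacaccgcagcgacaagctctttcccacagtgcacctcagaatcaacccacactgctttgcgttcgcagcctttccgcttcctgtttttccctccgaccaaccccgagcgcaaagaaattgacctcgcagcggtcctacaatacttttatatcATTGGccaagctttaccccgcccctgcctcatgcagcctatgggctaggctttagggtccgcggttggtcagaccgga
NDUFB1: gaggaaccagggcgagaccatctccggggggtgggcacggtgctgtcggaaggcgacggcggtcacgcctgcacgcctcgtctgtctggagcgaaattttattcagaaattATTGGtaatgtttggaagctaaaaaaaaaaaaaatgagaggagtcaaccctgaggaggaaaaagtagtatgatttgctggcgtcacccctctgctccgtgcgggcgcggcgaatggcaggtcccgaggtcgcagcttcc
COX4I1: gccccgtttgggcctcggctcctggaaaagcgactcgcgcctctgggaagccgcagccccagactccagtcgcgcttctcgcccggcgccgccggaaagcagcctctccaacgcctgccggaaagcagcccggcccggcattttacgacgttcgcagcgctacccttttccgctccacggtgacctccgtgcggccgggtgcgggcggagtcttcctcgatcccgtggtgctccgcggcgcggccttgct
They lie at chr2:97645812-97646061 on the plus strand for COX5B, chr5:140647631-140647880 on the minus strand for NDUFA2, chr14:92121707-92121956 on the minus strand for NDUFB1 and chr16:85799445-85799694 on the plus strand for COX4I1. In COX5B the capitals mark the NRF1 letters GCGCATGC read on the opposite strand, whose first base is at -136 from the start, and the ETS letters CCGGAAGT at -37 and -5, the last of which runs past the start and past the printed end. In NDUFA2 and NDUFB1 they mark CCAAT on the opposite strand, at -78 and -139, and NDUFA2 has another at 23, after the start. None of the searched letters was found in the COX4I1 window. The NRF1 letters and CCAAT were also found in members that were not called at 18 h, COX6A1 and NDUFA6 among them. Whether letters and calls go together was not tested.

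Among the 68 members with a listed promoter, searched from 250 bases before to 50 after the start on both strands, the NRF1 letters were found in 12 (17.6%, against 4.26% of 15842 protein-coding promoters). The ETS letters were in 9 (13.2%, against 6.19%), the YY1 letters AAGATGGCG in 7 (10.3%, against 2.74%) and the ERR letters AAGGTCA in 8 (11.8%, against 3.13%). CCAAT was in 23 (33.8%, against 36.4%). NRF1, GABPA of the ETS family, YY1 and the estrogen-related receptors are known activators of respiratory genes. The letters of different motifs were counted separately where they overlapped, and a match describes the letters and is not a binding site.

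The effect changed between the first and last time for 2 members. The enzastaurin effect at 18 h minus that at 4 h was -0.34 (95% interval -0.50 to -0.17, adjusted p = 0.0096) for NDUFB5 and -0.35 (95% interval -0.52 to -0.17, adjusted p = 0.012) for COX5B, both past the threshold without any single array. These 2 were 2.7% of members, against 3.66% of all genes called lower and 4.06% called higher. Leaving out DMSO 4 h replicate 3 or DMSO 18 h replicate 3 gave 4 and 6 members. Over all members the median difference was -0.11, against 0.01 for all genes and -0.02 for those among the brightest 25% of probe sets. Of the members 62 lay below 0 and 12 above (51.1% of all genes lay above 0). With array medians subtracted the members' median was -0.23, against -0.11 for all genes, and without DMSO 18 h replicate 3 it was -0.17.

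Within DMSO, 8 members were higher at 18 h than at 4 h and none lower (10.8%, against 11.3% of all genes called higher and 8.98% called lower), 6 of them in complex I. The largest rise was that of NDUFA8, an accessory subunit, which read 2522, 2606 and 3071 at 4 h and 3792, 3727 and 3257 at 18 h. The times did not overlap, and the change was 0.39 (95% interval 0.21 to 0.58, adjusted p = 0.0035), past the threshold in all 31 other settings and left-out arrays. NDUFB6 rose by 0.34 (adjusted p = 0.0041), ATP5IF1 by 0.32 (adjusted p = 0.017), NDUFA2 by 0.24 (adjusted p = 0.0031), COX5B by 0.22 (adjusted p = 0.0098), NDUFA12 by 0.20 (adjusted p = 0.049), NDUFB1 by 0.20 (adjusted p = 0.033) and NDUFB5 by 0.16 (adjusted p = 0.04). ATP5IF1, COX5B, NDUFB1, NDUFB5 and NDUFA12 were not called without DMSO 18 h replicate 1 (adjusted p over all left-out arrays up to 0.18), whereas NDUFA2, NDUFA8 and NDUFB6 held without any single array. NDUFA12 held without DMSO 18 h replicate 3, enzastaurin 10 h replicate 1 or 3 or enzastaurin 18 h replicate 3, and was lost without any 1 of the other 14. With quantile normalization the count was 16, and with array medians subtracted it was 2. NDUFB1 turned to -0.27 without _x_at and _s_at probe sets (kinds that can match several transcripts) and to -0.03 with the mean over probe sets, which also turned NDUFA2 to -0.07. The count was 5, 3 and 4 without DMSO 4 h replicate 2, DMSO 18 h replicate 1 or DMSO 18 h replicate 2. COX5B, NDUFA2, NDUFB1 and NDUFB5 were thus higher at 18 h than at 4 h in DMSO and lower with enzastaurin than with DMSO at 18 h, and these comparisons share the DMSO 18 h arrays. All 3 DMSO arrays at 18 h lay above all 3 at 4 h for 14 members (18.9%, against 19.3% of all genes) and below them for 0 (against 15.3%).

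Within enzastaurin, 6 members were lower at 18 h than at 4 h (8.11%, against 13.6% of all genes called lower) and COX4I2 was higher (1.35%, against 16.5%). NDUFA13, also known as GRIM-19, read 5809, 5577 and 5362 at 4 h and 4516, 4309 and 4311 at 18 h. NDUFA11 read 8061, 7826 and 7919 and 6277, 6385 and 6109.6. In neither gene did the times overlap, and the changes were -0.35 (95% interval -0.50 to -0.20, adjusted p = 0.001) and -0.34 (95% interval -0.49 to -0.19, adjusted p = 0.0011). ATP5F1D changed by -0.46 (adjusted p = 0.0054), ATP5MC1 by -0.33 (adjusted p = 0.025), ATP5MC2 by -0.28 (adjusted p = 0.015) and NDUFB5 by -0.17 (adjusted p = 0.022). ATP5F1D, NDUFA11 and NDUFA13 held without any single array, and the call of ATP5MC2 was lost without enzastaurin 4 h replicate 1 or 18 h replicate 1 or 3, that of NDUFB5 without 4 h replicate 1 or 3 or 18 h replicate 1, and that of ATP5MC1 without 4 h replicate 1 or 2 or any 18 h array (adjusted p up to 0.094). All 3 arrays at 18 h lay below all 3 at 4 h for 16 members (21.6%, against 18.1% of all genes) and above them for 3 (4.05%, against 22.2%). The count of 7 was 3 without enzastaurin 4 h replicate 1. The members' median change was -0.06, against 0.04 over all genes and 0.00 over those among the brightest 25% of probe sets. The members' value depended on the scaling, at 0.04 with 8 higher and 4 lower after quantile normalization and -0.18 with 0 higher and 11 lower after subtraction of array medians.

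The other mitochondrial gene groups were described with the same fit, from lists written with earlier results of these data known. Of 50 assembly factors, which insert cofactors and join subunits, none was called at 4 h. At 10 h 3 were higher and 2 lower (against 3.78% and 4.63% of all genes). At 18 h 5 were higher and 4 lower, near the shares of all genes (8.03% higher, 7.82% lower). LRPPRC, which stabilizes mitochondrial mRNAs, read 5394 ± 275 in DMSO and 7562 ± 228 in enzastaurin at 18 h (log2 change 0.49, adjusted p = 0.00013). COA3, a complex IV assembly factor, read 4618 ± 90.0 in DMSO and 3054 ± 87.5 in enzastaurin (log2 change -0.59, adjusted p = 2.7e-06). TTC19 was higher than in DMSO by 0.41 (adjusted p = 0.00024) and COX19 by 0.62 (adjusted p = 0.0025). COX20 differed by -0.37 (adjusted p = 0.00029) and PET100 by -0.51 (adjusted p = 0.01). From 4 to 18 h TTC19 was lower in DMSO (-0.41, adjusted p = 0.00022) and in enzastaurin (-0.18, adjusted p = 0.049). COX19 was lower over that time in DMSO (-0.41, adjusted p = 0.032). The median over the list was 0.01.

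Of 75 mitochondrial ribosomal proteins, which translate the subunits of mitochondrial DNA, 3 were higher and 7 lower at 18 h (against 8.03% and 7.82% of all genes), with a median of -0.01. MRPL12 was higher at 4 h (log2 change 0.26, adjusted p = 0.047) and 10 h (log2 change 0.32, adjusted p = 0.003) and lower at 18 h (log2 change -0.28, adjusted p = 0.0049). Within enzastaurin 32 of the 75 were lower at 18 h than at 4 h and 3 higher (against 13.6% and 16.5% of all genes), and within DMSO 16 were lower and 3 higher (against 8.98% and 11.3%). Whether the courses differ over the list was not tested. The mitochondrial DNA itself was covered by 7 genes, of which ND6, the complex I subunit on the light strand, was higher at 18 h, with 2191, 2333 and 1521 in DMSO and 2526, 3871 and 3303 in enzastaurin (log2 change 0.68, adjusted p = 0.0012). The groups did not overlap. From 4 to 18 h ND6 changed by -0.68 (adjusted p = 0.0011) in DMSO and by -0.22 (adjusted p = 0.25) in enzastaurin, so it did not rise over time in either. No other of the 7 was called at 18 h (against 8.03% of all genes called higher and 7.82% called lower). Of these others, COX3 of complex IV was lowest at 18 h, at -0.22 (adjusted p = 0.15), and ND2 highest at 0.01.

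Of 21 protein import genes 5 were higher and none lower at 10 h (against 3.78% of all genes called higher), and 4 were higher and none lower at 18 h (against 8.03% and 7.82%). TOMM40, the outer membrane channel, was called at both times at 0.27 (adjusted p = 0.016) and 0.27 (adjusted p = 0.0076), and the list's median was 0.09, 0.06 and 0.19 at 4, 10 and 18 h. Of 12 citric acid cycle genes DLD, the lipoamide dehydrogenase, was called lower at 18 h (log2 change -0.21, adjusted p = 0.016, against 7.82% of all genes called lower). Among 8 genes of hypoxia and pyruvate control 3 were lower and 1 higher at 18 h (against 7.82% and 8.03%). PDHB, a pyruvate dehydrogenase subunit, read 4405 ± 209 in DMSO and 3109 ± 149 in enzastaurin at 18 h (log2 change -0.50, adjusted p = 1.4e-05). BNIP3, a mitophagy receptor, changed by -0.44 (adjusted p = 0.00021) and HIGD1A, which binds complex IV, by -0.21 (adjusted p = 0.017). LONP1, the matrix protease, was higher than in DMSO by 0.67 (adjusted p = 5.2e-06). HIGD1A also stood in the list of 4 genes around cytochrome c, where CYCS, cytochrome c itself, changed by 0.02.

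Of 17 regulators of mitochondrial biogenesis 2 were lower and 1 higher at 18 h (against 7.82% and 8.03% of all genes). MYC, a growth factor-induced activator, was lower at all 3 times, with log2 changes of -0.70, -0.75 and -1.04. YY1, whose letters were searched in the promoters above, changed by -0.39 (adjusted p = 0.0002) at 10 h and -0.18 (adjusted p = 0.044) at 18 h. NRF1 and GABPA, also tied to searched letters, were not called for enzastaurin against DMSO at any time. At 4, 10 and 18 h NRF1 changed by 0.16, 0.24 and -0.08 and GABPA by 0.07, 0.02 and -0.21. ESRRA, an estrogen-related receptor, was higher at 18 h (log2 change 0.40, adjusted p = 0.018). GABPB1, a partner of the ETS factor GABPA, and PPRC1, a coactivator, were higher at 10 h, at 0.46 (adjusted p = 0.0019) and 0.51 (adjusted p = 0.012), and not called at 18 h. From 4 to 18 h NRF1 changed by -0.61 (adjusted p = 0.0024) in DMSO and -0.85 (adjusted p = 5.1e-05) in enzastaurin. Over the same time GABPB1 changed by -1.34 and -1.14 and YY1 by 0.33 and 0.24, all called, in the same order. GABPA was not called over time in either.

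**Figure D4:**
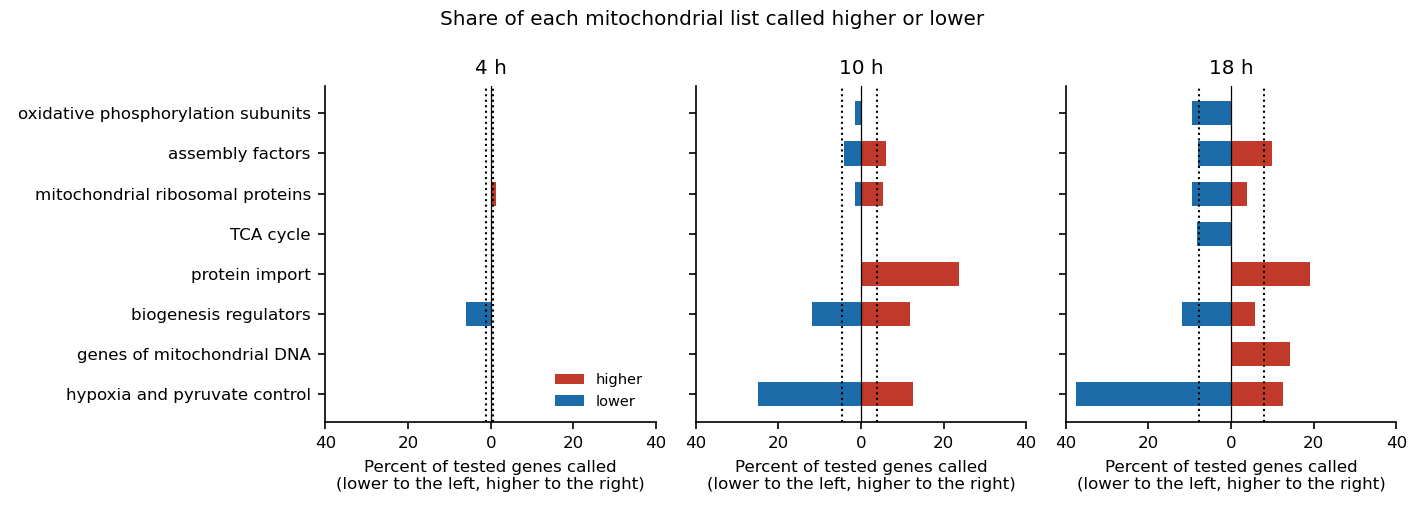
Percent of the tested genes of each mitochondrial list called higher (red, to the right) or lower (blue, to the left) by limma at 4, 10 and 18 h, with dotted lines at the percent of all genes. The bars of the oxidative phosphorylation subunits run only to the left, to 9.46% at 18 h, near the 7.82% of all genes called lower. Those of the 21 protein import genes run only to the right, with 5 genes at 10 h and 4 at 18 h. Of all genes 3.78% were called higher at 10 h and 8.03% at 18 h.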

How the data were processed

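Each sample of U251 cells was measured on 1 array, and the deposited intensity values were made by the authors with GCOS 1.2, per the submitters' processing notes, with 2% trimmed means of the arrays between 498.2 and 498.5. There were 54613 probe sets, of which 41091 had 1 gene symbol, 1801 several and 11721 none, and 0 columns of values were left unused. Gene IDs were matched to current RefSeq symbols (99.87%). From the deposited intensities, log2(intensity + 16) was computed, the brightest probe set stood for each gene, and genes with a mean of at least 109.0 were tested in 1 limma fit over 18 arrays with a trended prior. Adjusted p-values are Benjamini-Hochberg over all 12392 genes, and fold changes on this scale understate those of dim genes. The script was tested on simulated data. R 4.3.3, limma 3.58.1, Python 3.11.15 and matplotlib 3.10.9 were used.

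Named genes were every called member (the 10 with the largest change in a direction if there were more), the member with the largest rise and fall of the average effect in each complex, and the isoforms and regulators COX4I1, COX4I2, COX6A2, COX7A1, NDUFA4, NDUFA4L2 and ATP5IF1. Members named beside them to describe a complex, and list genes other than those called, were chosen after their values were seen. The members and lists were chosen with earlier results of these data known. Alternatives were offsets of 1 and 64, 2 filters, 2 scalings, 3 rules for probe sets, array weights, a prior without trend, a fit on the compared groups alone, the replicate number as a block, and each array left out. Deviations from the group means correlated at -0.13 to 0.175 over 45 pairs of samples with the same replicate number. Pairs with different numbers were not compared, so this cannot settle whether the numbers pair the samples.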

Additional observations from a re-analysis of the deposited data

Results flagged for a closer look

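The enzastaurin effect differed between 18 h and 4 h, by a test of the difference itself in limma over all 12392 genes, for NDUFB5 and COX5B. For NDUFB5, an accessory subunit of complex I, the difference was -0.34 on the log2 scale (adjusted p = 0.0096), from 0.08 at 4 h to -0.25 at 18 h. For COX5B, a subunit of complex IV, the difference was -0.35 (adjusted p = 0.012), from 0.07 at 4 h to -0.28 at 18 h. These 2 were 2.7% of members, against 3.66% of all genes called lower and 4.06% called higher. Both effects at 18 h share the DMSO 18 h arrays. Both genes were also called higher at 18 h than at 4 h in DMSO, and those calls were lost without DMSO 18 h replicate 1.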

How the results depend on the processing

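The counts below, and those with other settings or left-out arrays above, stand without the share of all genes called in the same fit. They describe only how stable the calls were. Counts of called members at 4 h stayed at 0 in all 31 other settings and left-out arrays. With 1 array left out, the counts ran from 0 to 3 at 10 h, 2 to 13 at 18 h, 2 to 7 for the average, 2 to 6 for the difference between 18 and 4 h, 3 to 8 over time in DMSO and 3 to 8 over time in enzastaurin. At 10 h, against 1, the count was 0 with no filter, array medians subtracted, no probe sets of the _x_at or _s_at kind, or no trend, 2 with the brightest 25% of probe sets or quantile normalization, and 4 with array weights. At 18 h, against 7, it was 4 with no filter, with the mean over probe sets or without _x_at and _s_at probe sets, 11 with the brightest 25%, 1 with array medians subtracted, and 3 with no trend or only the groups compared. For the average, against 5, it was 3 with no filter, no trend or no _x_at and _s_at probe sets, 8 with the brightest 25% or array weights, 9 with quantile normalization, 0 with medians subtracted and 2 with the mean over probe sets. For the difference, against 2, it was 6 with the brightest 25% and 1 with the mean over probe sets. Over time in DMSO, against 8, it was 16 with quantile normalization, 2 with medians subtracted, 5 with no trend or no _x_at and _s_at probe sets, and 4 with only the groups compared. Over time in enzastaurin, against 7, it was 12 with quantile normalization, 11 with medians subtracted and 13 with every probe set. Among called changes of named genes, and UQCR10 over time, directions turned where the probe set changed: at 18 h NDUFB1 gave 0.23 without _x_at and _s_at probe sets, and UQCR10 0.53 there and 0.15 with the mean over probe sets. Over time in DMSO NDUFB1 gave -0.27 and -0.03, UQCR10 -1.36 and -0.65 in those settings, and NDUFA2 -0.07 with the mean. The replicate block, for which no pairing was established, moved the count at 10 h from 1 to 0 and left 7 at 18 h. The causes were not tested. With 3 arrays a group, and intervals wider than ±0.5 for the dim isoforms, changes of that size in COX4I2, COX6A2 and COX6B2 were not resolved.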

Other observations

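Some loci with names like those of the members were kept apart from the counts. The divergent transcript NDUFV1-DT, at a mean intensity of 323.0, changed by -0.44, 0.09 and 0.10 on the log2 scale at 4, 10 and 18 h. The pseudogene ATP5MC2P1, at a mean of 207.0, changed by -0.02, -0.31 and 0.12.

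A few subunit genes were measured only by probe sets that name several genes. The probe set of NDUFS5, which also names the ribosomal protein gene RPL10, changed by -0.10, -0.07 and -0.10 at 4, 10 and 18 h. The brightest probe set of NDUFS8, an iron-sulfur subunit of complex I, had a mean intensity of 3763 ± 181 in DMSO at 4 h (SD, n = 3) and changed by 0.10, -0.06 and -0.14. The brightest of NDUFC2 changed by -0.05, -0.08 and -0.13, and the probe set shared by UQCRH and UQCRHL, the hinge protein of complex III, by 0.02, -0.04 and -0.03.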
